A study of Bos taurus with 9 samples.

Results

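The genes described here encode the subunits of the proteasome and the proteins that activate, inhibit and assemble it. They were chosen by symbol: a gene was taken when its symbol began with PSMA to PSMG followed by a number, which gave 49 of the 17162 genes in the expression table. Of these, 47 had a mean of at least 0.5 FPKM over the 9 libraries and entered the tests, which covered 12578 genes. FPKM is a count of fragments scaled for the length of the transcript and for the mapped fragments of the library, so it is a level per length that can be compared between genes. The remaining members were PSMA8, an alpha subunit known from the testis, listed at 0.19 and 0.44 FPKM in 2 GB libraries and at 0 elsewhere, and PSMB11, the beta subunit of the thymus, listed at 0.14 FPKM in 1 CON library and 0.13 FPKM in 1 GA library and at 0 elsewhere. PSMC3IP meets the pattern by its letters alone: it encodes a partner of PSMC3 that acts in meiotic recombination, and is kept apart from the subunits.

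Messenger RNA was sequenced from primary bovine endometrial cells (BEND), isolated from uteri of Holstein cows and all labelled wild type. The CON group had no hormone or interferon, the GA group had E2 (estradiol, 1 nM) and P4 (progesterone, 100 nM), and the GB group had E2 and P4 at the same doses together with IFNT (100 ng/mL), with 3 libraries in each group. IFNT, interferon tau, is the type I interferon by which the ruminant conceptus signals pregnancy to the endometrium. A protocol time of 12 h is listed for all 9 libraries, CON and GA included. The methods place IFNT after 12 h of E2 and P4, for another 12 h, and do not state when CON and GA were harvested. In the GB comparisons IFNT and any difference in culture time therefore cannot be told apart. The methods describe fresh medium for the treated groups, and name neither a medium change nor a vehicle for CON. In GA vs. CON the hormones therefore cannot be told apart from such differences or from culture time. All cells were grown in medium with 10% serum and used after purification by differential attachment. How many cows gave the cells is not stated, and nothing says that replicates came from separate animals, so p-values measure the spread between these libraries, which may be technical.

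The labels call the cells epithelial, and the study's methods describe a check of their purity by staining for a cytokeratin protein, with a positive result. The RNA levels go against the label. Of 10 epithelial markers none had a mean over 1 FPKM, and KRT8, KRT18, KRT19 and CDH1 each had a mean under 0.5 FPKM in every group. All 10 stromal fibroblast markers were over 1 FPKM, led by VIM with a mean of 9082 FPKM in CON, and their summed level was 17169 to 17746 FPKM in CON, 17340 to 17740 FPKM in GA and 15539 to 15641 FPKM in GB. Of 6 endothelial markers 2 were over 1 FPKM. The cells are therefore called BEND here without a cell type. Immune cells carry much immunoproteasome, so 12 immune markers were read as well. Their summed level was 54.1 to 59.2 FPKM in CON, 53.6 to 58.1 FPKM in GA and 52.2 to 58.3 FPKM in GB. The leukocyte genes ITGB2, CD53 and CD79A had means under 0.5 FPKM in every group, but other markers of the list were well above that. CD14 had means of 20.2 FPKM in CON, 21.4 FPKM in GA and 19.05 FPKM in GB. In the same order, the means of LAPTM5 were 16.8, 13.95 and 12.9 FPKM, and those of CORO1A were 7.86, 7.67 and 5.44 FPKM. CD163 stood higher in GB, with means of 2.32 FPKM in CON, 1.89 FPKM for GA and 9.23 FPKM for GB, and 6 of the 12 markers had a mean over 1 FPKM. The part of either marker list in the results was not tested. Across the 9 libraries the FPKM values summed to between 1395600 and 1442700, and the number of reads behind a value is not known.

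The proteasome is a barrel of 4 stacked rings, 2 of alpha and 2 of beta subunits (the 20S core), in which unfolded proteins are cut. In most cells the cutting is done by PSMB5, PSMB6 and PSMB7. Interferons are known to induce PSMB8, PSMB9 and PSMB10, which take their places in newly built cores and form the immunoproteasome, whose peptides suit presentation on MHC class I. The core is opened by caps: the 19S particle, built of ATPases (PSMC genes) and other subunits (PSMD genes), which takes in ubiquitinated proteins, or the 11S activator of PSME1 and PSME2 (PA28 alpha and beta), which interferons also induce. In the endometrium, the MHC class I pathway is among the known responses to the interferon of the conceptus.

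In GB vs. CON, 7 of the 47 members tested were higher by more than 1 on the log2 scale at an adjusted p under 0.05, and none was lower by as much. They were the 3 immunoproteasome genes PSMB8, PSMB9 and PSMB10, the 11S activator genes PSME1 and PSME2, the inhibitor PSMF1 and the alpha subunit PSMA2. The share of members called higher was 14.9%, and among all genes tested it was 2.94% (4.01% in either direction). Against GA the same 7 genes were called, all higher, where 2.66% of all genes were called higher (3.64% in either direction). These comparisons share the GB libraries, so they are not independent of each other. In GA vs. CON no member was called, and 0.0716% of all genes were. Log2 fold changes (log2FC) are differences of mean log2(FPKM + 0.5), given ± SE from the limma fit with its adjusted p, and they understate changes of genes near 0.5 FPKM. As these are bulk libraries, a change in the number of expressing cells and a change in RNA per cell cannot be told apart.

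**Figure D1:**
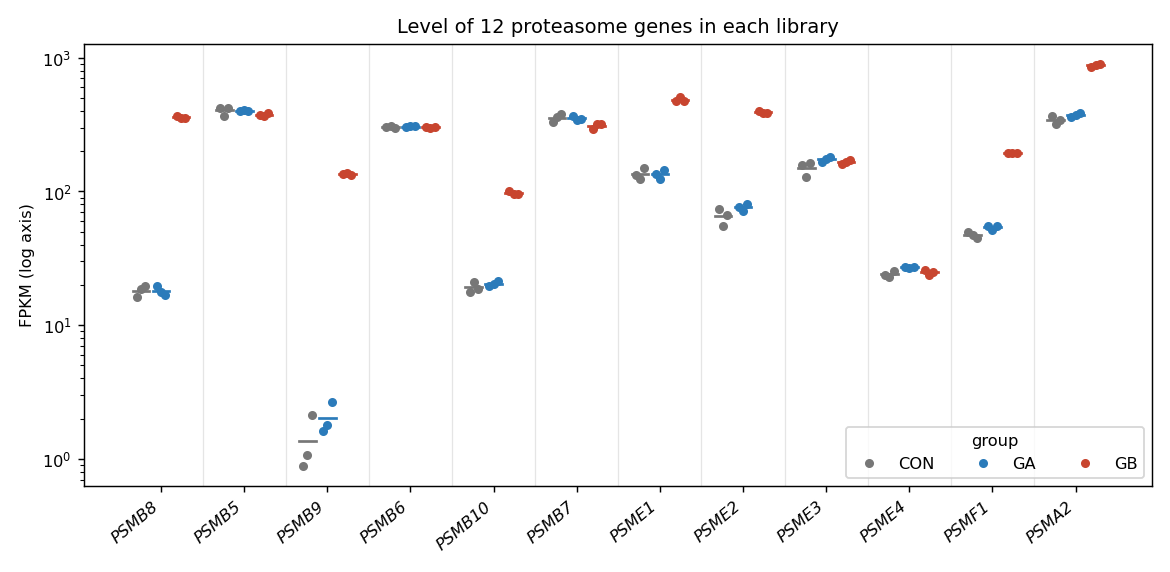
FPKM on a log axis for 12 proteasome genes in the 3 CON (grey), 3 GA (blue) and 3 GB (red) libraries; points are libraries and bars are group means. PSMB8, PSMB9, PSMB10, PSME1, PSME2, PSMF1 and PSMA2 sit higher in all 3 GB libraries than in any CON or GA library, whereas the GB levels of PSMB6 overlap those of CON and lie just below those of GA.

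The immunoproteasome genes PSMB9 and PSMB8 had the largest differences among the members. PSMB8, which encodes the beta5i subunit, was at 16.2, 18.5 and 19.6 FPKM in CON, 19.7, 17.6 and 16.7 FPKM in GA and 364, 353 and 357 FPKM in GB. The GB libraries lay far above all others, and CON and GA overlapped. Its log2FC was 4.27 ± 0.079 (adjusted p = 4.1e-10) against CON and 4.28 ± 0.079 (adjusted p = 4.2e-10) against GA, about 19.3-fold and 19.5-fold on that scale. PSMB9, the beta1i subunit, was at 0.88, 1.07 and 2.13 FPKM in CON, 1.62, 1.79 and 2.68 FPKM in GA and 134, 137 and 133 FPKM in GB. It went from the lowest level of the 47 members in CON to one above 11 of them in GB, and again CON and GA overlapped. Its log2FC was 6.24 ± 0.23 (adjusted p = 4.9e-08) against CON and 5.76 ± 0.23 (adjusted p = 9.1e-08) against GA, the 24th largest rise of the 12578 genes in the first and the 33rd in the second. As its CON and GA values are near the pseudocount, its log2FC in GB vs. CON ran from 5.88 to 6.62 over the alternatives that kept all libraries, and its direction and call held in all 19. PSMB10, the beta2i subunit, was at 17.6, 21.1 and 18.8 FPKM in CON, 19.6, 20.2 and 21.6 FPKM in GA and 101, 95.9 and 96.2 FPKM in GB, with the GB libraries above all others. Its log2FC was 2.32 ± 0.072 (adjusted p = 1.3e-08) against CON and 2.23 ± 0.072 (adjusted p = 1.7e-08) against GA.

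The constitutive counterparts moved little. PSMB5, with chymotrypsin-like activity, was at 423, 368 and 422 FPKM in CON, 399, 403 and 399 FPKM in GA and 370.2, 369.8 and 386 FPKM in GB, and GB overlapped CON. Its log2FC in GB vs. CON was -0.10 (95% interval -0.23 to 0.02, adjusted p = 0.18), and against GA, where all GB libraries were lower, it was -0.095 (95% interval -0.22 to 0.029, adjusted p = 0.24). PSMB6, with caspase-like activity, was at 303, 309 and 299 FPKM in CON, 305, 307 and 306 FPKM in GA and 303, 298 and 303 FPKM in GB. GB overlapped CON and was just below every GA library, and the log2FC against CON of -0.0093 (95% interval -0.083 to 0.064, adjusted p = 0.86) bounds any difference closely; its sign depended on the scaling. PSMB7, with trypsin-like activity, was at 333, 359 and 377 FPKM in CON, 369, 343 and 347 FPKM in GA and 295, 319 and 317 FPKM in GB, and all GB libraries were below all others. It fell slightly, with a log2FC of -0.20 ± 0.056 (adjusted p = 0.0237) against CON and -0.19 ± 0.056 (adjusted p = 0.034) against GA; the first was lost in 3 of 19 alternative settings and the second in 9.

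Read within a library, where any scaling of the library cancels, each immunoproteasome gene took a larger part of its pair in GB. PSMB8 made up 3.70%, 4.79% and 4.45% in CON, 4.69%, 4.18% and 4.01% in GA and 49.6%, 48.8% and 48.1% in GB of the summed FPKM of PSMB8 and PSMB5. So in GB the levels of both genes were nearly equal, at a mean ratio of 0.955 ± 0.029 (SD, n = 3). PSMB9 made up 0.29%, 0.34% and 0.71% in CON, 0.53%, 0.58% and 0.87% in GA and 30.7%, 31.4% and 30.6% in GB of the sum with PSMB6. PSMB10 made up 5.02%, 5.56% and 4.74% in CON, 5.05%, 5.55% and 5.85% in GA and 25.5%, 23.1% and 23.3% in GB of the sum with PSMB7. In GB the shares thus ran from PSMB8, highest, through PSMB9 to PSMB10, lowest, without overlap between genes, whereas in CON PSMB9 was lowest. Over all 6 genes the immunoproteasome part was 3.51% ± 0.31 in CON, 3.68% ± 0.062 for GA and 37.4% ± 0.72 for GB (SD, n = 3). The summed level of the 3 immunoproteasome genes was 38.7 ± 3.42 FPKM in CON and 590.8 ± 7.67 FPKM in GB, and that of PSMB5, PSMB6 and PSMB7 was 1064 ± 31.3 FPKM and 987 ± 18.7 FPKM. The log2 ratio of the pair differed between GB and CON by 4.38 for PSMB8, 6.25 for PSMB9 and 2.52 for PSMB10. An exact two-sided permutation test gave p = 0.1 for each pair when GB was set against CON or against GA, the smallest that 3 libraries against 3 allow. In GA vs. CON the log2 ratios differed by -0.0018 (p = 1), 0.47 (p = 0.3) and 0.11 (p = 0.3) in the same exact test. The difference for PSMB9 rested on single libraries, at 0.28 without CON replicate 1, 0.29 without GA replicate 3 and 0.76 without CON replicate 3, as did that for PSMB10, at 0.052 without CON replicate 3, 0.057 without GA replicate 3, 0.17 without CON replicate 2 and 0.17 without GA replicate 1.

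**Figure D2:**
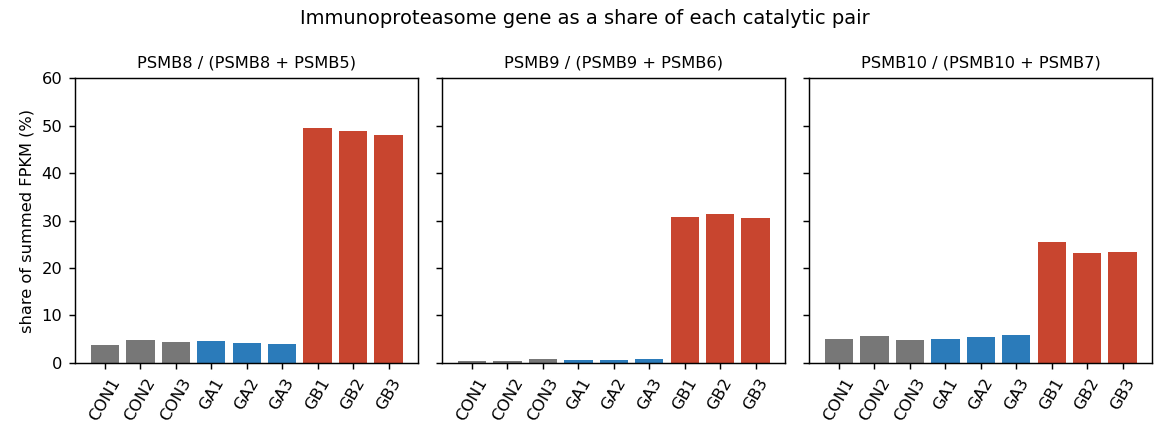
Bars give, for each library, the FPKM of an immunoproteasome gene as a percentage of its summed FPKM with the constitutive counterpart, in CON (grey), GA (blue) and GB (red). The GB bars stand at 48.1% to 49.6% for PSMB8, 30.6% to 31.4% for PSMB9 and 23.1% to 25.5% for PSMB10, and every CON and GA bar is under 6%.

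Among the activators, the interferon-induced pair stood apart from the other members. PSME1 was at 132, 123 and 149 FPKM in CON, 136, 124 and 144 FPKM in GA and 473, 512 and 471 FPKM in GB. All GB libraries were above all others, and CON and GA overlapped. Its log2FC was 1.85 ± 0.079 (adjusted p = 1.4e-07) against CON and 1.85 ± 0.079 (adjusted p = 1.4e-07) against GA. PSME2, whose product forms a ring with that of PSME1, was at 74.0, 54.9 and 66.1 FPKM in CON, 76.3, 71.8 and 80.9 FPKM in GA and 401, 389 and 388 FPKM in GB, and GB was again above all others. Its log2FC was 2.60 ± 0.095 (adjusted p = 4.6e-08) against CON and 2.36 ± 0.095 (adjusted p = 9.7e-08) against GA. The level of PSME1 was 2.09 ± 0.27 times that of PSME2 in CON, 1.76 ± 0.029 times for GA and 1.24 ± 0.071 times for GB (SD, n = 3), and GB lay below every other library, while CON replicate 1 (1.78) was level with the GA libraries.

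PSME3, which forms the nuclear activator PA28 gamma, was at 158, 128 and 162 FPKM in CON, 166, 176 and 181 FPKM in GA and 159, 167 and 172 FPKM in GB, with overlap between GB and the other groups. Its log2FC in GB vs. CON was 0.16 (95% interval -0.03 to 0.35, adjusted p = 0.18). PSME4 (PA200), a large single-chain activator of the nucleus, was at 23.9, 22.9 and 25.5 FPKM in CON, 27.4, 26.6 and 27.4 FPKM in GA and 25.9, 23.6 and 25.2 FPKM in GB, and its log2FC in GB vs. CON was 0.046 (95% interval -0.089 to 0.18, adjusted p = 0.59). For neither gene did GB pass the test against CON or GA. The ratio of PSME1 to PSME3 had a mean of 0.904 in CON, of 0.773 in GA and of 2.92 in GB. That of PSME2 to PSME3 had means of 0.434, 0.438 and 2.36. For both ratios the exact permutation test of GB against either group gave p = 0.1, again the smallest possible. In GA vs. CON the log2 ratio of PSME1 to PSME3 differed by -0.23, with every GA library below every CON library (p = 0.1), and that of PSME2 to PSME3 by 0.013 (p = 1) in the same exact test.

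PSMF1 encodes PI31, described as an inhibitor of the 20S core in vitro and as an adaptor for proteasome transport. It was at 50.0, 47.3 and 44.7 FPKM in CON, 55.1, 51.8 and 55.5 FPKM in GA and 195, 195 and 192 FPKM in GB. The GB libraries were far above the rest, and all GA libraries were above all CON libraries. Its log2FC was 2.02 ± 0.051 (adjusted p = 2.8e-09) against CON and 1.83 ± 0.051 (adjusted p = 6.3e-09) against GA, between those of PSME1 and PSMB10 in GB vs. CON. In GA vs. CON its log2FC was 0.19 (95% interval 0.076 to 0.31, adjusted p = 0.12), which did not pass.

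The alpha ring, the outer gate of the core, held 1 called gene, PSMA2. It was at 364, 322 and 340.5 FPKM in CON, 361, 371 and 385 FPKM in GA and 848, 880.5 and 896 FPKM in GB, with every GB library above all others. Its log2FC was 1.35 ± 0.051 (adjusted p = 5.3e-08) against CON and 1.23 ± 0.051 (adjusted p = 1.1e-07) against GA. It had the 9th highest mean level of the 49 members in CON and the highest in GB. Set against the median of the other 6 alpha genes tested, a ratio chosen after the values were seen, PSMA2 was at 1.51 ± 0.095 for CON, 1.66 ± 0.022 for GA and 3.09 ± 0.014 for GB (SD, n = 3). The alpha subunits are present in equal number in a ring, and the means of the 7 alpha genes tested spanned 161 to 567 FPKM in CON and 202 to 875 FPKM in GB.

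Of the other 6 alpha genes, 5 rose slightly in GB vs. CON (adjusted p under 0.05 without a threshold on the fold, which 16.2% of all genes tested reached as higher and 17.3% as lower). The largest of these rises was that of PSMA5, at 238, 250.0 and 248 FPKM in CON, 224, 239 and 237 FPKM in GA and 335, 335 and 326 FPKM in GB, with all GB libraries above the rest and a log2FC of 0.44 ± 0.04 (adjusted p = 4.2e-05); against GA it was 0.51 ± 0.04 (adjusted p = 1.6e-05). PSMA4 (0.33 ± 0.044, adjusted p = 5.4e-04), PSMA6 (0.28 ± 0.046, adjusted p = 0.00167) and PSMA3 (0.24 ± 0.062, adjusted p = 0.0167) followed, and PSMA1 (0.15 ± 0.051, adjusted p = 0.0464) passed narrowly and was lost in 12 of 19 alternative settings. PSMA4, PSMA5 and PSMA6 also rose in GB vs. GA. PSMA7 was the lowest, at 551, 556 and 595 FPKM in CON, 537, 604 and 589 FPKM in GA and 513, 520.2 and 512 FPKM in GB. Its GB libraries were below all others, with a log2FC of -0.14 (95% interval -0.25 to -0.024, adjusted p = 0.0641) in GB vs. CON. Against GA it fell, at -0.16 ± 0.051 (adjusted p = 0.0416), but no longer passed in 10 of 19 settings.

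Among the structural beta genes, which line the inner rings without cutting, PSMB4 was at 460.5, 395 and 469 FPKM in CON, 447, 453 and 471 FPKM in GA and 544, 553 and 542 FPKM in GB. Each GB library exceeded each of the others, and the gene rose with a log2FC of 0.31 ± 0.062 (adjusted p = 0.00435) against CON and 0.26 ± 0.062 (adjusted p = 0.0125) against GA. PSMB2 rose as well, with a log2FC of 0.17 ± 0.046 (adjusted p = 0.0207) and 0.18 ± 0.046 (adjusted p = 0.0165). The first was lost in 4 of 19 settings (adjusted p up to 0.0699, without CON replicate 1, GB replicate 2 or GB replicate 3 and in a fit of the 2 groups alone) and the second in 3 (up to 0.0579, without GA replicate 1, GA replicate 2 or GB replicate 3). PSMB1 was at 485, 488 and 506 FPKM in CON, 510.4, 493 and 497 FPKM in GA and 464, 474 and 482 FPKM in GB, with GB below the rest, and did not pass, with a log2FC in GB vs. CON of -0.059 (95% interval -0.14 to 0.021, adjusted p = 0.23). PSMB3 did not pass either, at 0.05 (95% interval -0.047 to 0.15, adjusted p = 0.41). Over the 14 constitutive core genes, 8 rose and 1 fell in GB vs. CON, where 16.2% of all genes rose and 17.3% fell. The median log2FC was 0.16 beside -0.016 over all genes. In GB vs. GA 6 rose and 2 fell, where 9.87% and 19.2% of all genes did, with a median of 0.15 beside -0.075 over all genes.

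**Figure D3:**
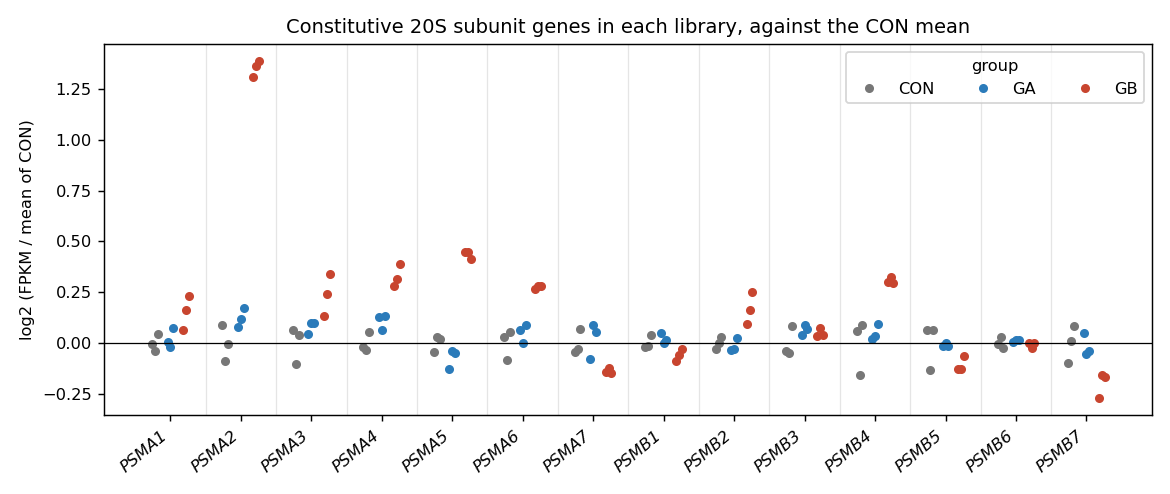
Log2 of each library's FPKM over the mean of CON for the 14 constitutive genes of the 20S core, with CON in grey, GA in blue and GB in red. The GB points of PSMA2 stand alone above 1, and those of PSMA7, PSMB1, PSMB5, PSMB6 and PSMB7 lie below 0, for PSMB6 only just.

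The 19S particle had no called member. Of the 17 PSMC and PSMD genes of its base and lid, 5 rose and 6 fell against CON. Both shares were above the 16.2% and 17.3% of all genes that did so. The median log2FC was -0.023 beside -0.016 over all genes. Against GA 2 rose and 4 fell, close to the 9.87% and 19.2% of all genes, and the median was -0.060 beside -0.075. The ATPases form the ring that unfolds substrates. PSMC6 was at 152, 130.1 and 148 FPKM in CON, 160.4, 159 and 151 FPKM in GA and 169.6, 160.4 and 179 FPKM in GB, with GB above CON and its lowest library level with the highest of GA. It rose with a log2FC of 0.25 ± 0.065 (adjusted p = 0.0184) in GB vs. CON. Against GA its log2FC was 0.11 (95% interval -0.036 to 0.26, adjusted p = 0.24), which did not pass. PSMC5 was at 253, 259.8 and 257 FPKM in CON, 249, 256 and 252 FPKM in GA and 226, 236 and 238 FPKM in GB, below the others in GB, and fell with a log2FC of -0.14 ± 0.036 (adjusted p = 0.0164) in GB vs. CON; against GA it was -0.11 ± 0.036 (adjusted p = 0.0398), lost in 12 of 19 settings. PSMC3 rose in GB vs. GA alone, at 0.12 ± 0.036 (adjusted p = 0.0377), and no longer passed in 8 settings. PSMC1, PSMC2 and PSMC4 passed in neither comparison.

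Among the 11 non-ATPase genes, PSMD7, a scaffold partner of the deubiquitinase PSMD14, was at 230.2, 218 and 234 FPKM in CON, 232, 238 and 234 FPKM in GA and 259, 276 and 258 FPKM in GB. Its GB libraries were above all others, and it rose with a log2FC of 0.22 ± 0.043 (adjusted p = 0.00422) against CON and 0.17 ± 0.043 (adjusted p = 0.0149) against GA. PSMD1, a large scaffold subunit of the base, was at 166, 165 and 161 FPKM in CON, 174, 159 and 171 FPKM in GA and 134, 137 and 136 FPKM in GB. The GB libraries were below all others, and it fell with a log2FC of -0.27 ± 0.043 (adjusted p = 0.00118) against CON and -0.31 ± 0.043 (adjusted p = 7.2e-04) against GA, the lowest of the members in the first. PSMD6, a lid subunit, fell with a log2FC of -0.22 ± 0.047 (adjusted p = 0.00617) against CON and -0.24 ± 0.047 (adjusted p = 0.00511) against GA. PSMD11 and PSMD12, also of the lid, rose in GB vs. CON with log2FC of 0.16 and 0.21. Against GA neither passed, at 0.085 (adjusted p = 0.11) and 0.072 (adjusted p = 0.41). For both genes every GA library was above every CON library. In GB vs. CON PSMD12 no longer passed in 4 of 19 settings, with an adjusted p of 0.0533, 0.0666 and 0.0593 without GB replicates 1, 2 and 3 in turn and 0.0569 with quantile normalization, and PSMD11 in 1, at 0.0653 with quantile normalization. PSMD13 rose and PSMD2, PSMD4 and PSMD8 fell by 0.10 to 0.18 in size, close to the threshold on the adjusted p. They no longer passed in 14, 7, 13 and 13 of 19 settings in turn. PSMD3 had a log2FC of 0.0061 (95% interval -0.071 to 0.084, adjusted p = 0.91) and PSMD14 one of -0.023 (95% interval -0.11 to 0.068, adjusted p = 0.70), and neither passed.

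Assembly factors hold subunits in place while the particle is built and are not part of it. Of the 19S chaperones, PSMD10 (gankyrin) was at 41.2, 45.5 and 36.6 FPKM in CON, 51.7, 40.6 and 46.8 FPKM in GA and 52.8, 53.5 and 53.8 FPKM in GB. The GB libraries were above all others, with CON and GA overlapping, and it rose with a log2FC of 0.38 ± 0.097 (adjusted p = 0.0151) in GB vs. CON but had 0.21 (95% interval -0.012 to 0.42, adjusted p = 0.14) in GB vs. GA. PSMD9 was at 112, 119.6 and 114 FPKM in CON, 118, 128 and 118 FPKM in GA and 115, 114 and 115 FPKM in GB, with GB overlapping CON and below GA, and its log2FC was -0.007 (95% interval -0.11 to 0.10, adjusted p = 0.93) in GB vs. CON and -0.082 (95% interval -0.19 to 0.022, adjusted p = 0.22) in GB vs. GA. PSMD5 did not pass either, at 0.021 (95% interval -0.12 to 0.16, adjusted p = 0.82).

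Of the 4 chaperones of the 20S core, PSMG2 was at 101, 90.5 and 103 FPKM in CON, 106, 103 and 113 FPKM in GA and 107, 119 and 115 FPKM in GB. Its GB libraries were above those of CON and overlapped those of GA. PSMG2 rose with a log2FC of 0.21 ± 0.064 (adjusted p = 0.0306) in GB vs. CON, but no longer passed in 5 settings. PSMG3 was at 244, 266 and 245 FPKM in CON, 271, 277 and 270.0 FPKM in GA and 207, 231 and 221 FPKM in GB, lowest in GB. It fell with a log2FC of -0.20 ± 0.051 (adjusted p = 0.0171) against CON and -0.31 ± 0.051 (adjusted p = 0.00185) against GA. PSMG1, the partner of PSMG2, had a log2FC of 0.073 (95% interval -0.15 to 0.30, adjusted p = 0.62) and PSMG4, the partner of PSMG3, one of -0.12 (95% interval -0.39 to 0.16, adjusted p = 0.50), so that for these noisier genes a change of the size seen in their partners lies within the interval. PSMC3IP was at 34.8, 34.0 and 38.2 FPKM in CON, 30.8, 40.4 and 33.6 FPKM in GA and 37.5, 40.4 and 37.7 FPKM in GB, with overlap, and a log2FC in GB vs. CON of 0.11 (95% interval -0.10 to 0.33, adjusted p = 0.40).

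**Figure D4:**
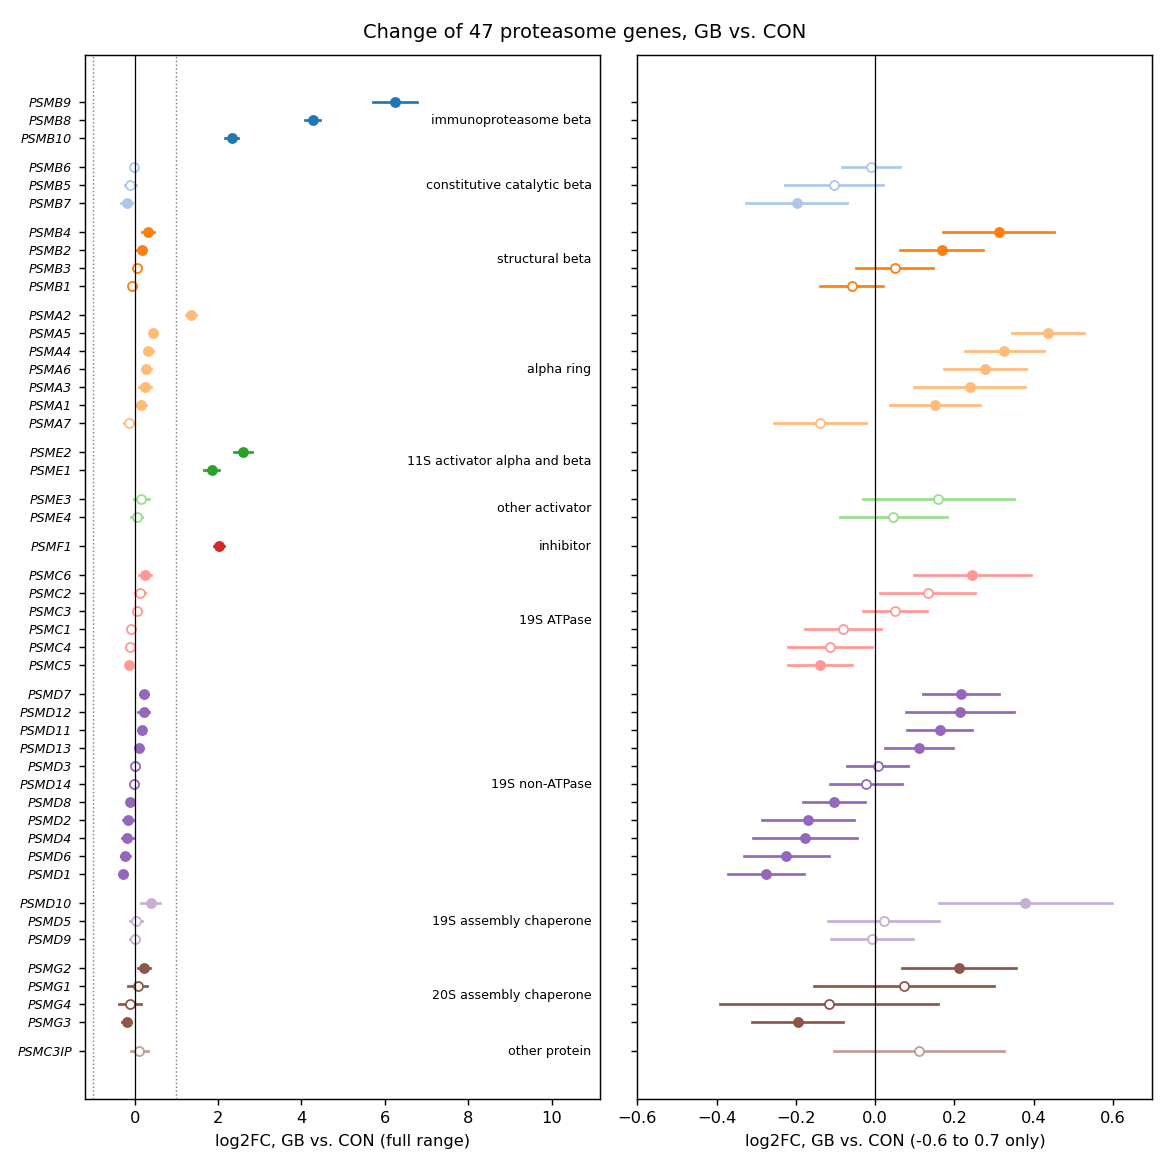
Log2FC in GB vs. CON with 95% intervals for the 47 members tested, grouped by role, over the full range (left, dotted lines at -1 and 1) and from -0.6 to 0.7 (right); filled points have an adjusted p under 0.05. The 7 called genes lie to the right of 1 and outside the right panel, and the other 40 lie between -0.27 for PSMD1 and 0.44 for PSMA5.

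Without a threshold on the fold, 29 of 47 members (61.7%) had an adjusted p under 0.05 in GB vs. CON, 21 higher and 8 lower. Among all genes tested the share was 33.5%, with 16.2% higher and 17.3% lower, so the share of members that fell (17%) was near that of all genes. In 22 members all GB libraries were above all CON libraries, and in 12 all were below, where 22.2% and 23.9% of all genes did so. The count of members that fell rested on single libraries: it was 2 without GB replicate 1 and 5 without CON replicate 3, GA replicate 2 or GB replicate 3, and without GB replicate 3 the total was 19. In GB vs. GA 21 members passed, 14 higher and 7 lower, where 29% of all genes passed, 9.87% higher and 19.2% lower. Leaving out any 1 of GA replicates 2 and 3 or GB replicates 1, 2 and 3 left 3 lower, and leaving out GA replicate 1 left 4. With median-of-ratios factors the split was 19 higher and 3 lower in GB vs. GA, with rescaling to an equal sum 18 and 4, and with quantile normalization 15 and 4. PSMA4, PSMA5, PSMA6, PSMB4, PSMD1 and PSMD6 kept an adjusted p under 0.05 in both GB comparisons in every one of the 19 settings. So did the 7 called genes. Against CON, PSMA3, PSMC5 and PSMG3 no longer passed in 1 setting each and PSMC6 in 2, and against GA PSMD7 no longer passed in 2 and PSMD2 in 11. Over the 40 members not called, the median log2FC was 0.048 against CON and -0.019 against GA.

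With E2 and P4 but no IFNT, no member passed the test against CON. In GA vs. CON 0 of 47 members had an adjusted p under 0.05 in the limma fit, where 0.453% of all genes did, and 9 members had an unadjusted p under 0.05 (19.1%, against 19.3% of all genes). The median log2FC of the members was 0.051, beside 0.061 over all genes. The extremes were PSMB9, at 0.48 (95% interval -0.042 to 1.00, adjusted p = 0.29), and PSMD4, at -0.094 (95% interval -0.23 to 0.038, adjusted p = 0.40). The smallest adjusted p was that of PSMF1, given above.

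Genes that belong to or act with the proteasome but carry other symbols also moved little. Of 25 such genes 24 were tested, and DDI2 was not analysed here. None was called in GB vs. CON. At an adjusted p under 0.05, 5 rose and 3 fell, near the 16.2% and 17.3% of all genes, and the median log2FC was 0.052 beside -0.016 over all genes. ECPAS, a scaffold that binds the 26S particle, was at 41.3, 35.9 and 39.1 FPKM in CON, 39.1, 40.9 and 39.8 FPKM in GA and 48.6, 48.8 and 51.6 FPKM in GB, with GB above the rest, and rose with a log2FC of 0.36 ± 0.059 (adjusted p = 0.00173). NFE2L1, the transcription factor that restores proteasome genes when the proteasome is inhibited, rose with a log2FC of 0.23 ± 0.04 (adjusted p = 0.00217) against CON and 0.24 ± 0.04 (adjusted p = 0.00205) against GA. The deubiquitinases UCHL5 (0.30) and USP14 (0.23), which act on the 19S particle, and the shuttle RAD23B (0.24) rose in GB vs. CON. Against GA none of these passed, at 0.080 (adjusted p = 0.28), -0.0048 (adjusted p = 0.96) and 0.13 (adjusted p = 0.13) in turn. The means of USP14 were 87.4 FPKM in CON, 102.6 FPKM in GA and 102.3 FPKM in GB. The ubiquitin receptor ADRM1 (-0.23), the unfoldase VCP (-0.22) and the ligase UBE3C (-0.24) fell in GB vs. CON. They also fell against GA, at -0.16, -0.22 and -0.38. POMP, the chaperone of core assembly that is needed for the immunoproteasome, was at 739, 586 and 724 FPKM in CON, 777, 809 and 816 FPKM in GA and 750.1, 813 and 871 FPKM in GB. CON replicate 2 was the lowest, GB was above CON and overlapped GA, and the log2FC was 0.25 (95% interval 0.055 to 0.45, adjusted p = 0.0522) against CON and 0.016 (95% interval -0.18 to 0.21, adjusted p = 0.91) against GA. In GB vs. GA none of the 24 was called, and 2 rose and 6 fell, near the 9.87% and 19.2% of all genes.

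The genes that carry peptides from the proteasome to MHC class I, with factors known to regulate them, rose in many cases. Of 21, 12 were called higher in GB vs. CON and none lower, where 2.94% of all genes were called higher, and the median log2FC was 1.51 beside -0.016 over all genes. Against GA 12 were called higher as well, where 2.66% of all genes were, the median being 1.42 beside -0.075. TAP1, a chain of the peptide transporter of the endoplasmic reticulum, was at 6.44, 6.81 and 7.79 FPKM in CON, 6.58, 6.27 and 6.95 FPKM in GA and 191, 188 and 196 FPKM in GB. All GB libraries were far above the rest, and its log2FC was 4.68 ± 0.074 (adjusted p = 1.8e-10) in GB vs. CON. Its partner TAP2 (1.94), the loading factors TAPBP (1.43) and TAPBPL (2.14), the trimming peptidases ERAP1 (2.42) and ERAP2 (1.99) and the light chain B2M (1.95) rose in GB vs. CON. Of the regulators, the signal transducer STAT2 (1.85), the interferon regulatory factors IRF1 (2.24), IRF2 (1.51) and IRF9 (2.15) and the MHC class I activator NLRC5 (1.97) rose. The cytosolic peptidases THOP1, TPP2 and NRDC, which shorten or destroy proteasome products, had log2FC of -0.17, -0.14 and -0.12 in GB vs. CON, which did not pass, and fell against GA by 0.23, 0.27 and 0.27 on the log2 scale. LAP3, another peptidase, rose in GB vs. CON (0.82) under the fold threshold. Of the other list members, CANX (0.20) and BLMH (0.35) rose slightly in GB vs. CON and passed in neither case against GA. CALR (0.065, adjusted p = 0.16), PDIA3 (0.13, adjusted p = 0.072) and NPEPPS (0.015, adjusted p = 0.92) did not pass in GB vs. CON.

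**Figure D5:**
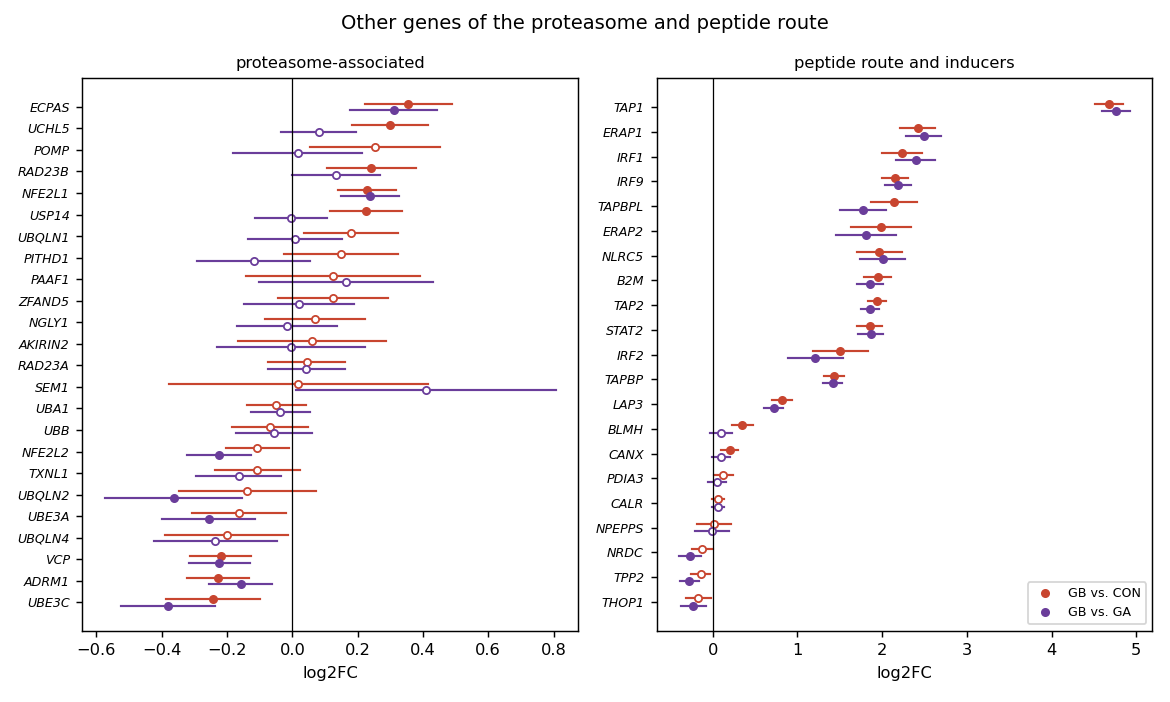
Log2FC with 95% intervals in GB vs. CON (red) and GB vs. GA (purple), which share the GB libraries. The left panel holds 24 genes that belong to or act with the proteasome, and the right 21 genes of the peptide route and its regulators. Filled points have an adjusted p under 0.05. On the left no point reaches 0.5 in size; on the right 12 genes lie above 1, led by TAP1.

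The nearest neighbours of the 7 called genes differed in how they moved, by the gene order of the ARS-UCD2.0 assembly, which is not the build of the deposited values. PSMB8 and PSMB9 stand on either side of TAP1. The neighbour of PSMB8 on the far side, LOC618733, was at 26.1, 27.8 and 25.0 FPKM in CON, 27.1, 25.7 and 25.3 FPKM in GA and 111, 107 and 118 FPKM in GB, and was called higher with a log2FC of 2.07 ± 0.059 (adjusted p = 7.0e-09). H2B, on the far side of PSMB9, was at 16.1, 11.5 and 8.73 FPKM in CON, 11.5, 10.3 and 7.61 FPKM in GA and 7.92, 3.31 and 0 FPKM in GB, below CON in all GB libraries and overlapping GA, and did not pass, with a log2FC of -2.28 (95% interval -4.15 to -0.41, adjusted p = 0.061) in GB vs. CON. PSME1 and PSME2 are separated by EMC9, which did not pass in GB vs. CON, with a log2FC of -0.33 (95% interval -0.81 to 0.16, adjusted p = 0.28); it overlaps PSME1, and its GB libraries were below those of GA. FITM1, on the other side of PSME1, had a log2FC of 0.053 (95% interval -0.49 to 0.59, adjusted p = 0.89). RNF31, on the other side of PSME2, was at 15.7, 14.8 and 14.2 FPKM in CON, 15.3, 16.3 and 15.2 FPKM in GA and 24.4, 22.6 and 25.3 FPKM in GB and rose with a log2FC of 0.68 ± 0.067 (adjusted p = 6.8e-05). PSMA2 stands between C4H7orf25, with a log2FC of 0.15 (95% interval -0.10 to 0.40, adjusted p = 0.33), and MRPL32, a mitochondrial ribosome gene. MRPL32 was at 31.5, 32.2 and 35.9 FPKM in CON, 43.3, 41.7 and 46.7 FPKM in GA and 62.4, 54.7 and 49.2 FPKM in GB, in that order without overlap, and rose with a log2FC of 0.73 ± 0.091 (adjusted p = 3.2e-04) in GB vs. CON. PSMB10 overlaps LCAT, whose values overlapped between the groups and which did not pass, with a log2FC of -0.15 (95% interval -0.40 to 0.11, adjusted p = 0.35). PSKH1, its other neighbour, did not pass either, at 0.18 (95% interval -0.022 to 0.38, adjusted p = 0.15). Beside PSMF1, RSPO4 was listed at 0 in all GA and GB libraries, and TMEM74B, too low for the test, was at 0.19, 0.19 and 0.37 FPKM in CON, 0, 0 and 0.20 FPKM in GA and 0.90, 1.70 and 0.77 FPKM in GB, higher in every GB library than in the others. The sources do not say whether counting used the strand, so reads of overlapping genes may have been shared. PSMB3, PSMB5, PSMD1, PSMD6 and PSMG2 are among the other members that overlap a gene in that assembly.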

How the data were processed

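The authors made the deposited FPKM values, 1 column per library at 2 decimals. Per the labels and methods, they trimmed reads with fastp (0.21.0), removed rRNA with Bowtie2 (2.33), aligned to ARS-UCD1.2 with HISAT2 (2.2.1) and quantified genes with RSEM (1.3.3). Libraries came from a directional kit after poly-T purification. The annotation release is not given in the sources used here, and the read depth behind each value is unknown, so no counting interval is given. The authors' own test was DESeq2 (1.34.0) on counts.

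Here, log2(FPKM + 0.5) of 12578 genes with a mean of at least 0.5 FPKM was fitted over all 9 libraries with limma (3.58.1, R 4.3.3, variance trend), checked on simulated data. Genes were called at |log2FC| above 1 and Benjamini-Hochberg adjusted p under 0.05, adjusted over all genes tested. Ratios of paired genes, on FPKM + 0.5 for the tests, were compared by exact two-sided permutation. Figures used Python 3.11.15 and matplotlib 3.10.9. Values in every library are given for the catalytic, immunoproteasome and activator genes, every called member, and the highest and lowest log2FC of GB vs. CON in other roles; other genes come from fixed lists, except neighbouring genes, named by position, and the list members singled out for values. Members, lists and tests were chosen with earlier results of these data known. List counts cover reported genes; a few others are not reported here. No batch is given in the labels. All 49 symbols matched RefSeq (ARS-UCD2.0), used for gene order only.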

Additional observations from a re-analysis of the deposited data

How the results depend on the processing

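The 19 alternatives changed the pseudocount (0.1 or 1), the filter (none, or a mean of 1 FPKM), the scaling (equal sums, median-of-ratios factors, quantile normalization), the variance trend, the groups fitted or the replicate block, or left out 1 library; leaving out PSMC3IP was also tried. In each, 7 members were called in GB vs. CON, 7 when GB was set against GA and 0 in GA vs. CON. The count with an adjusted p under 0.05 was 19 to 26 in GB vs. CON when 1 library was left out, with 19 without GB replicate 3, and 15 to 23 against GA. Replicate numbers are shared between groups, and the sources do not say whether they pair the libraries. The correlation of same-numbered deviations was -0.031 to 0.077 over 9 pairs, and that of differently numbered ones -0.068 to 0.056 over 18. These overlapping ranges show no sign of pairing, but cannot settle whether the libraries were paired. With the replicate block, 26 members passed against CON and 17 against GA, and called counts were 7, 7 and 0. In GA vs. CON, leaving out 1 library moved the difference in log2 ratio of PSMB8 to PSMB5 between -0.11 and 0.082 and that of PSME2 to PSME3 between -0.031 and 0.066, so neither has a sign. Differences of about 0.1 to 0.2 on the log2 scale were at the limit of what 3 libraries a group resolved. Counting error could not be separated from the spread between libraries, because FPKM values hold no read numbers.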
